A study of Mus musculus with 18 samples.

Results

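The genes grouped here as astrocyte maturation genes were *Gfap*, *Aqp4*, *Slc1a2*, *Slc1a3*, *Aldoc*, *Gja1*, *Clu*, *Sparc* and *Gpr37l1*. These 9 genes were followed through 18 bulk RNA-seq libraries of newborn mouse forebrain (postnatal day 0). They were read from the named genes of 4 tables of FPKM values (fragment counts scaled to transcript length and library depth), which held between 23138 and 54429 gene names each. All 9 were found in every table, and the entry with the highest mean was used where a name had several. The genes were chosen by their role and in part by their FPKM in mutant neurospheres, where several were low, so that their neurosphere values are a description and carry no test here, while the tissue comparisons were tested.

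The hippocampal comparison held 3 control libraries (*Kdm2b* fl/+ or fl/fl) and 3 conditional knockout (cKO) libraries (*Kdm2b* Emx1-delta-CxxC). Neurospheres, which are floating cultures of hippocampal neural progenitor cells kept in medium with FGF2 and EGF, and cortices were compared between the same genotypes with 2 control and 2 cKO libraries each. A further set of hippocampi held 2 control (*Rnf2* fl/+ or fl/fl) and 2 cKO (*Rnf2* Emx1-cKO) libraries. In the *Kdm2b* cKO the exon for the CxxC zinc finger, by which KDM2B binds CpG-rich DNA, is removed and a shortened protein is left, and *Rnf2* encodes RING1B, the ubiquitin ligase of Polycomb repressive complex 1. Both deletions were driven by *Emx1*-Cre, which acts in progenitors of the dorsal forebrain and their progeny, so that cells of other origin in the same tissue, such as microglia and vessel cells, keep the intact gene. Controls with 1 and with 2 floxed alleles share a label, and the labels do not say whether each library came from a separate animal, so p values measure the spread between these libraries, which may be technical.

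Astrocytes arise from radial glia late in forebrain development, after most neurons have been made, and mature over the weeks after birth. As they mature they gain glutamate transporters that clear the synapse, water channels on the endfeet that touch vessels, and gap junctions that join them into a network. Several of the genes are already on in radial glia, and some are also used by ependymal, meningeal or vascular cells, so that a level in whole tissue is a sum over cell types. In these bulk samples, fewer cells of a type and less RNA per cell cannot be told apart.

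The promoters of *Gfap* and *Gja1* are shown because the first encodes the defining filament of astrocytes and the second changed differently in different tissues. The 250 bases before a RefSeq start of each gene (GRCm38.p6) are given 5′ to 3′ on the strand of the gene. Each CpG, the dinucleotide that the CxxC zinc finger reads, is in capitals. The *Gfap* window is chr11:102897201-102897450 on the minus strand and the *Gja1* window is chr10:56377050-56377299 on the plus strand.
Gfap: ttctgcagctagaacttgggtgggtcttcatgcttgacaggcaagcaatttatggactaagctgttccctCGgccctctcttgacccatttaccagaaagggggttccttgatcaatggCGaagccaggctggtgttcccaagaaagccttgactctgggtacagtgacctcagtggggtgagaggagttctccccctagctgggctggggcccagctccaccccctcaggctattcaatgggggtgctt
Gja1: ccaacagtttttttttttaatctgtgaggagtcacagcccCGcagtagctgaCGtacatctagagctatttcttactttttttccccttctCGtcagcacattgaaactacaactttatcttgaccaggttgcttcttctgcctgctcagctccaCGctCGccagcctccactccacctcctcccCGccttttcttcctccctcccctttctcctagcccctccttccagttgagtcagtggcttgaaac

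The *Gfap* window held 2 CpGs and the *Gja1* window held 6, against a median of 6 and an upper quartile of 16 over 32851 such windows of 27025 genes. RefSeq windows were matched for 7 of the 9 genes, all but *Aqp4* and *Clu*, with 8 windows in all because *Aldoc* had 2. The CpG counts of the others were 1 for *Slc1a2*, 2 for *Slc1a3*, 4 for *Sparc*, 3 and 5 for *Aldoc* and 7 for *Gpr37l1*. None of the 8 windows thus reached the upper quartile. The windows of *Gfap*, *Slc1a2* and *Sparc* and the *Aldoc* window with 3 CpGs lay inside the gene spans given below. That of *Slc1a2* began at 102706188, where the span begins at 102658659. CpGs at starts further upstream in these genes were not counted. The palindromic motif of nuclear factor I, a family of astrocyte transcription factors, was searched on both strands and was in 0 of the 8 windows and in 0.037% of all windows. Its shorter letters TTGGC, which lie within the palindrome, was in the windows of *Aldoc* and *Slc1a2* (2 of 8) and in 41.5% of all windows. The STAT letters TTCNNNGAA were in windows of *Aldoc* and *Slc1a3* (2 of 8) and in 7.02% of all windows. These matches describe letters in a window and not binding.

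Depth and identity of the libraries were as follows. The cortical and *Rnf2* values resolved into whole reads (18480515 to 21905224 and 14654894 to 16334420 reads over all entries per library). Reads of single hippocampal and neurosphere libraries could not be recovered, and the study states only a general depth for its RNA-seq libraries. *Kdm2b* as a whole gene was at 28.1 to 31.9 FPKM in control and 26.2 to 28.2 FPKM in cKO hippocampi, at 21.9 to 22.2 and 22.5 to 23.7 FPKM in neurospheres, and at 15.7 to 16.9 and 14.7 to 14.9 FPKM in cortices. *Rnf2* was at 30.8 and 32.3 FPKM in control and 27.8 and 28.5 FPKM in cKO hippocampi of its own set. Gene-level values do not separate the floxed exon, so they do not check the labels. Identity markers followed the tissue, with *Prox1* at 34.3 FPKM in control hippocampi and 1.19 FPKM in control cortices, and *Egfr* at 51.5 FPKM in control neurospheres. The neurosphere control library 1 stood apart, with 29.3% of its FPKM on entries without a gene name and 22.6% of the rest on *Mir6236*. *Xist*, which marks female tissue, was at 153.8 FPKM in the hippocampal cKO library 1 and no higher than 0.0732 FPKM in the remaining 5, and in the cortex and neurosphere sets it was below 0.4 FPKM in control library 1 and cKO library 1, respectively.

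In control hippocampi the 9 genes spanned a wide range of levels. The glutamate transporter *Slc1a3* (GLAST), which radial glia also use, was highest at 116 ± 2.60 FPKM (SD, n = 3), above 96.4% of the genes tested. *Sparc*, a secreted matrix-binding protein, followed at 96.2 ± 3.29 FPKM, then *Gfap* at 79.1 ± 10.7 FPKM and *Aldoc*, the brain aldolase of glycolysis, at 68.4 ± 8.02 FPKM, and the ranges of the last pair overlapped. *Clu*, a secreted chaperone, was at 57.1 ± 1.02 FPKM and *Slc1a2* (GLT-1), the main glutamate transporter of mature astrocytes, at 49.5 ± 4.43 FPKM. The gap junction protein *Gja1* (connexin 43) was at 21.4 ± 1.00 FPKM, the water channel *Aqp4* at 10.5 ± 0.770 FPKM and the orphan receptor *Gpr37l1* lowest at 3.49 ± 0.981 FPKM, above 25.1% of the genes tested. No other neighbours in this order overlapped between libraries.

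The order was different in the other tables, whose values were normalised separately. Control neurospheres had *Slc1a3* highest at 459 ± 21.3 FPKM (SD, n = 2), *Aldoc* next at 189 ± 26.8 FPKM and then *Gja1* at 87.4 ± 12.6 FPKM, and *Gpr37l1* was at 63.4 ± 7.15 FPKM, overlapping with *Slc1a2*. *Aqp4* was lowest there at 3.11 ± 0.526 FPKM. Control cortices held little of the genes that are used mainly by differentiated astrocytes. *Gfap* was at 0.420 and 0.212 FPKM (39 and 19 reads), *Aqp4* at 0.116 and 0.315 FPKM (13 and 34 reads) and *Gpr37l1* at 0.10 and 0.0622 FPKM (5 and 3 reads), while *Aldoc* led at 29.6 ± 1.47 FPKM. These 3 genes fell below the filter of a mean of 0.5 FPKM and were not tested in cortices, so 6 of the 9 were. In controls of the *Rnf2* set *Sparc* led at 73.1 ± 8.03 FPKM, *Slc1a3* followed at 62.0 ± 5.4 FPKM, and *Gpr37l1* was again lowest at 1.96 ± 1.69 FPKM. There *Gfap*, *Clu* and *Aldoc* overlapped in turn, as did *Aqp4* and *Gja1*.

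**Figure D1:**
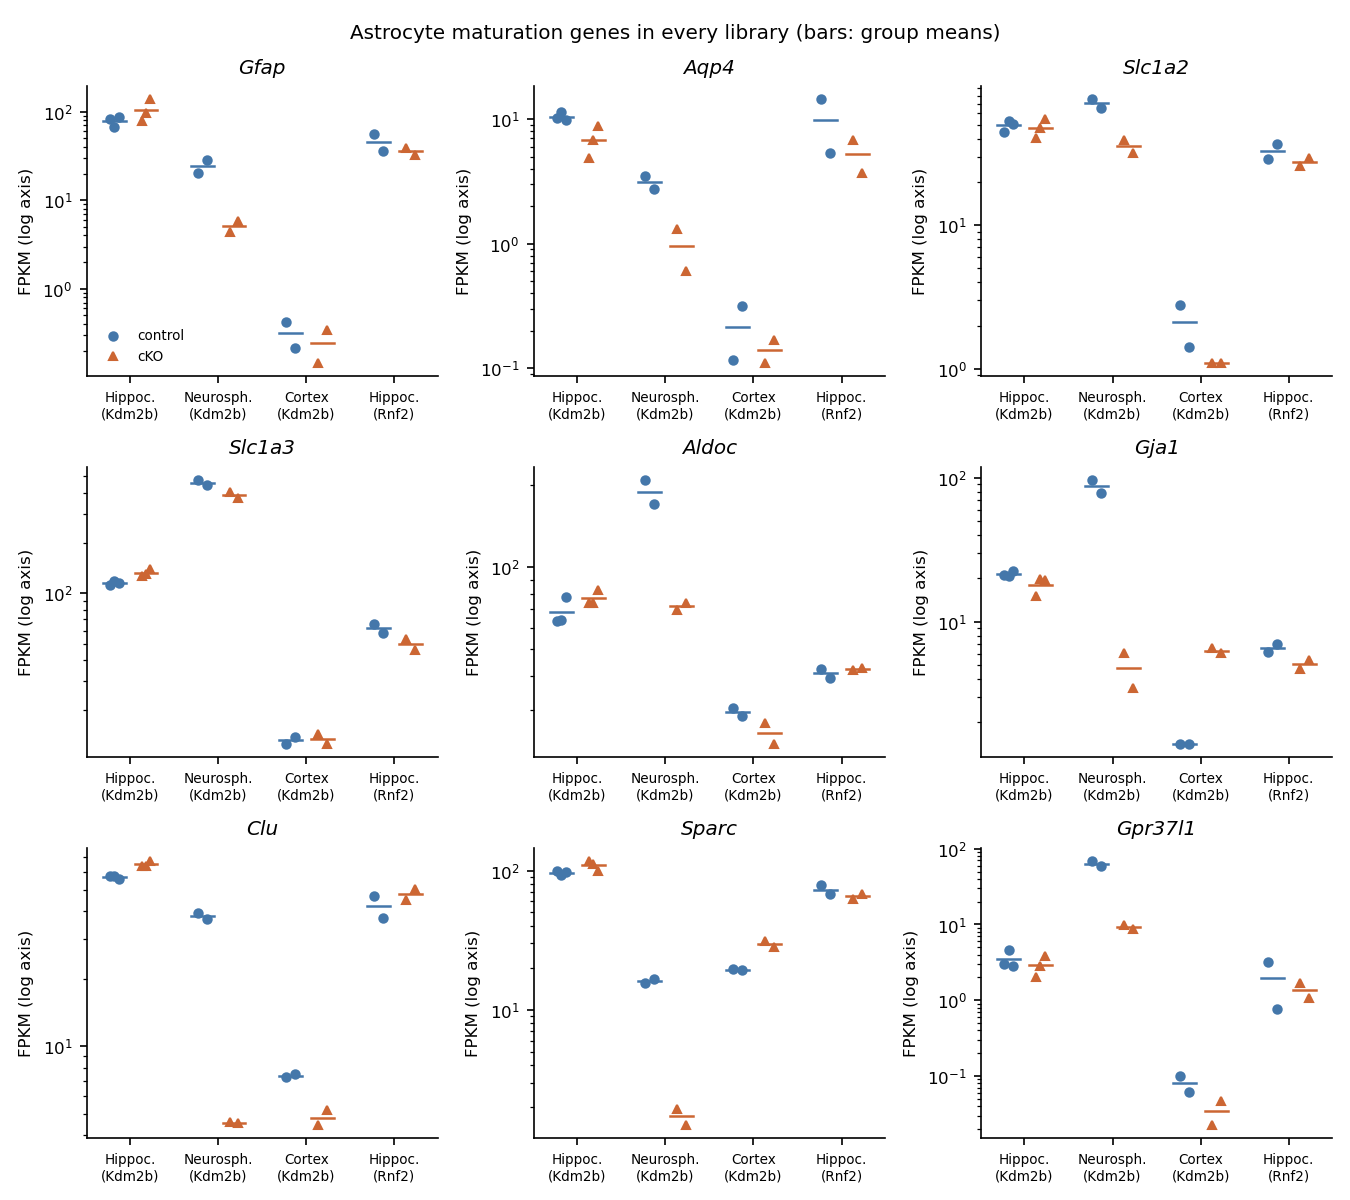
FPKM of each of the 9 genes (log axis) in every library of the 4 tables, with control libraries as circles, cKO libraries as triangles and group means as bars. cKO neurospheres lay below control neurospheres for all 9 genes, hippocampal groups lay close together, and *Gja1* was higher in cKO than in control cortices.

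In hippocampi lacking the CxxC domain of *Kdm2b*, the 9 genes changed little and in both directions. *Aqp4* alone was lower by the thresholds of the study, and *Slc1a3* and *Clu*, which were slightly higher, had the only adjusted p values under 0.05. Log2 fold changes on the log2(FPKM + 1) scale, which understates the change of low genes, ran from -0.59 to 0.38, 5 of them above 0, with a median of 0.17 against 0.01 over all 13446 genes tested. By the thresholds of the study, which ask for more than 0.4 on the log2 scale either way and p under 0.05 without adjustment, 1 of 9 was lower and 0 were higher, where 2.25% and 3.89% of all genes tested were called. With limma p values adjusted over all genes at the same fold change, 0 of 9 were called, where 4.41% of all genes were. The cKO libraries lay wholly outside the controls for 4 of the 9 genes, with *Slc1a3* and *Clu* above and *Aqp4* and *Gja1* below, where 29.2% of all genes tested did so.

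The water channel *Aqp4* (ENSMUSG00000024411, chromosome 18, 15389394 to 15403684 of GRCm38) was the gene that was called. Controls were at 10.2, 11.3 and 9.88 FPKM and cKO hippocampi at 4.86, 6.74 and 8.82 FPKM. All cKO libraries were below all controls, but cKO library 3 lay closer to the controls than to cKO library 1. It changed by -0.59 on the log2 scale (SE 0.16, limma adjusted p = 0.0571). Without cKO library 1, the library with *Xist*, the log2 fold change was -0.40 and no longer past the thresholds (limma adjusted p = 0.0984, 0.0130 to 0.146 over all alternatives). *Aqp4* is also made by ependymal cells, and 5 of 7 ependymal marker genes were lower in the same cKO libraries, with summed levels of 82.8 to 93.1 FPKM in controls and 67.5 to 78.8 FPKM in cKO hippocampi and no marker at 0 in all libraries of a group. Their part in the result was not tested.

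*Gfap* (ENSMUSG00000020932, chromosome 11, 102887336 to 102900912), the intermediate filament by which astrocytes are usually recognised, was at 83.0, 67.0 and 87.3 FPKM in controls and at 79.1, 97.8 and 138 FPKM in cKO hippocampi. The groups overlapped, and cKO library 3 was the highest by a wide margin. The log2 fold change was 0.38 (95% interval -0.02 to 0.77, limma adjusted p = 0.245). Without cKO library 1 it was 0.56 and past the thresholds, though with an adjusted p of 0.0749 from limma.

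Of the glutamate transporters, *Slc1a3* was higher and *Slc1a2* was not called. *Slc1a3* (ENSMUSG00000005360, chromosome 15, 8634124 to 8710764) was at 113, 118 and 115.5 FPKM in controls and 127, 131 and 140.1 FPKM in cKO hippocampi, all above the controls. The rise was small, 0.20 on the log2 scale (SE 0.050, limma adjusted p = 0.0446, 0.0428 to 0.148 over the alternatives), below the fold change threshold. *Slc1a2* (ENSMUSG00000005089, chromosome 2, 102658659 to 102790784) was at 44.5, 53.0 and 51.0 FPKM in controls and 40.7, 47.5 and 55.1 FPKM in cKO hippocampi. These groups overlapped, and the log2 fold change was -0.06 (95% interval -0.29 to 0.18, limma adjusted p = 0.799).

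*Clu* (ENSMUSG00000022037, chromosome 14, 65968483 to 65981547) was the other gene with an adjusted p under 0.05. Its controls, at 57.7, 57.7 and 55.9 FPKM, were below its cKO libraries, at 63.7, 64.0 and 67.0 FPKM. The gene changed by 0.18 on the log2 scale (SE 0.045, limma adjusted p = 0.0389, 0.0379 to 0.130 over the alternatives), again below the fold change threshold. *Clu* is also made by the choroid plexus, whose marker sums were 9.01, 7.71 and 19.7 FPKM in controls and 63.0, 45.8 and 9.99 FPKM in cKO hippocampi (3 of the 5 markers tested were higher). Their part in the change of *Clu* was not tested. Microglial sums were 62.7 to 69.0 FPKM in controls and 79.1 to 100.02 FPKM in cKO hippocampi, with 4 of 8 markers higher, and their part was not tested. *Gja1* (ENSMUSG00000050953, chromosome 10, 56377330 to 56402513) was at 21.0, 20.7 and 22.6 FPKM in controls and 15.0, 19.7 and 19.5 FPKM in cKO hippocampi. Its cKO libraries were all below the controls, by -0.24 on the log2 scale (SE 0.097, limma adjusted p = 0.171).

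The remaining genes overlapped between the groups. *Aldoc* (ENSMUSG00000017390, chromosome 11, 78322968 to 78327781) ranged from 63.7 to 77.7 FPKM in controls and from 73.8 to 82.4 FPKM in cKO hippocampi. *Sparc* (ENSMUSG00000018593, chromosome 11, 55394500 to 55423183) ranged from 92.6 to 99.1 and from 98.9 to 117 FPKM in its main entry, and from 32.2 to 40.1 and from 31.3 to 37.5 FPKM in a further entry of the same name. *Gpr37l1* (ENSMUSG00000026424, chromosome 1, 135160234 to 135167681) ranged from 2.82 to 4.62 and from 2.03 to 3.85 FPKM in its main entry. A further entry of that name ranged from 1.14 to 1.83 and from 0.000111 to 2.03 FPKM. The log2 fold changes of *Aldoc*, *Sparc* and *Gpr37l1* were 0.17, 0.18 and -0.20 in the main entries. None passed an adjusted p of 0.05 (lowest 0.134 for *Sparc*, from limma). With entries summed the change was 0.13 for *Sparc* and -0.43 for *Gpr37l1*, neither of them called.

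In neurospheres of the same genotypes, all 9 genes were lower in both cKO libraries than in both controls, where 34.4% of all genes above the filter were. Their median change was -2.05 on the log2 scale against -0.01 over all 12227 genes above the filter. All but *Slc1a3*, 8 of the 9, were below -0.4 on that scale, as were 14.6% of all genes above the filter. These values took part in the choice of the genes, so no p is used and nothing is read from either share. Without control library 1 the median was -2.29.

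*Gja1* changed most. It was at 96.3 and 78.5 FPKM in controls and 6.07 and 3.46 FPKM in cKO neurospheres, so that the control mean was 18.3 times the cKO mean. *Sparc* was at 15.5 and 16.6 FPKM against 1.94 and 1.48 FPKM, a ratio of 9.35. For both genes the cKO libraries lay far below the controls.

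*Clu* was at 39.3 and 36.8 FPKM in controls and 4.58 and 4.55 FPKM in cKO neurospheres, a ratio of 8.35. *Gpr37l1* was at 68.4 and 58.3 FPKM against 9.91 and 8.68 FPKM, a ratio of 6.82. *Gfap* was at 20.3 and 28.7 FPKM against 4.37 and 5.89 FPKM, a ratio of 4.78. For each of these genes both cKO libraries were below both controls.

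*Aqp4*, the gene with the lowest level, was at 3.48 and 2.73 FPKM in controls and at 1.32 and 0.60 FPKM in cKO neurospheres. *Aldoc* shares its entry with the neighbouring gene *Pigs*, which was at 208 and 170.2 FPKM against 69.9 and 74.1 FPKM, and the entry of *Aldoc* alone held at most 2.45 FPKM, so that the value may include *Pigs*. *Slc1a2* was at 75.4 and 65.4 FPKM against 39.4 and 32.0 FPKM, and a further entry of that name at 36.3 and 22.7 against 10.3 and 14.4 FPKM. The change of these genes was smaller, with control means of 3.23, 2.63 and 1.97 times the cKO means.

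*Slc1a3* was the exception in size. It was at 475 and 444 FPKM in controls and at 405 and 372 FPKM in cKO neurospheres, a log2 fold change of -0.24. The transporters of glutamate thus kept between 0.507 (*Slc1a2*) and 0.845 (*Slc1a3*) of the control level, while *Gja1* kept 0.0545 of it.

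**Figure D2:**
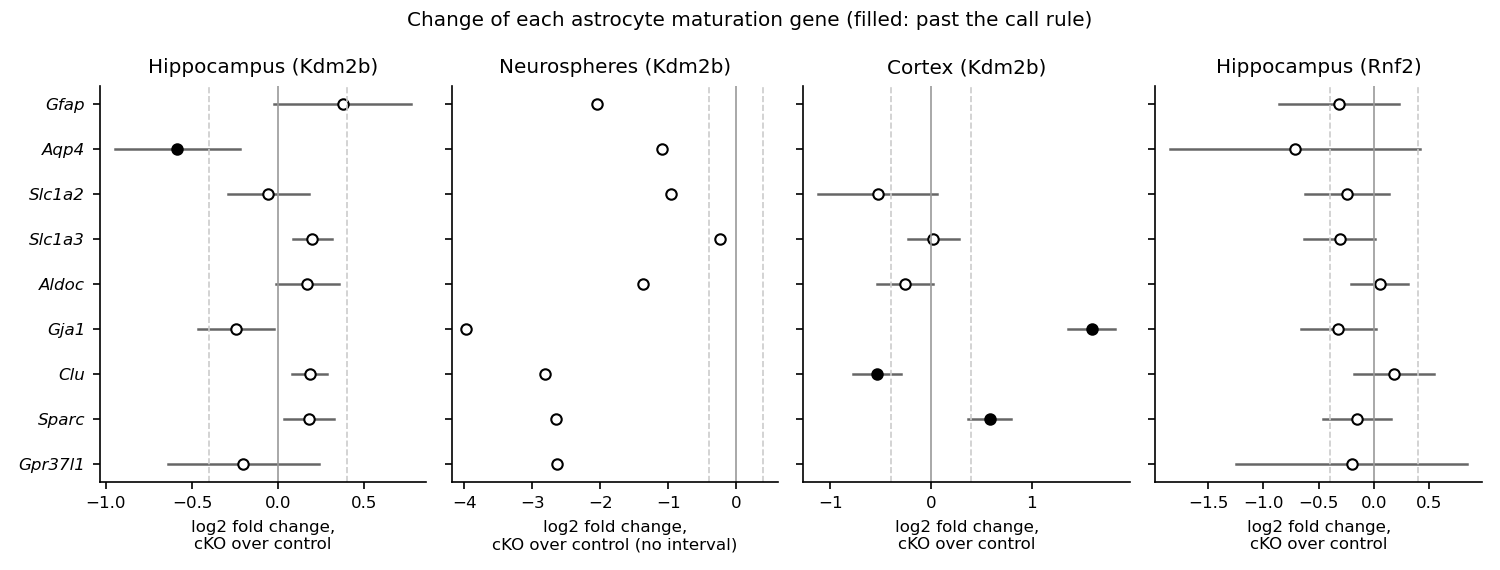
Log2 fold change (cKO over control, log2(FPKM + 1) scale) of each gene in the 4 comparisons, with 95% intervals from limma for the 3 tissue comparisons and none for neurospheres, and dashed lines at the fold change threshold of 0.4 in size. The x axes differ in scale, filled points in the tissue panels are past the thresholds, and 3 genes below the filter in cortices have no point there.

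In cortices, where 6 of the 9 genes could be tested, *Gja1* and *Sparc* were higher and *Clu* was lower in the *Kdm2b* cKO. At the same thresholds 2 of 6 were higher and 1 was lower, where 4.73% and 2.28% of the 15691 genes tested were called. With adjusted p values at the same fold change, *Gja1* alone was called, where 0.427% of all genes were. The cKO libraries lay wholly outside the controls for 5 of 6 genes, where 44.8% of all genes tested did so, and the median log2 fold change was -0.12 against -0.01 over all genes.

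*Gja1* was at 1.41 and 1.42 FPKM (319 and 310 reads) in control cortices and at 6.60 and 6.02 FPKM (1329 and 1154 reads) in cKO cortices. The cKO mean was 4.45 times the control mean, and both cKO libraries were far above both controls. The gene changed by 1.60 on the log2 scale (SE 0.092, limma adjusted p = 0.0156), and 2.15 with an adjusted p of 4.61e-05 from limma-voom on the recovered reads. Its adjusted p did not stay under 0.05 in every alternative run. With a library left out, which leaves 1 library in a group and takes the spread from the other pair, the change was 1.54 to 1.65.

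*Sparc* was at 19.6 and 19.2 FPKM in control and 31.2 and 28.1 FPKM in cKO cortices. It changed by 0.59 on the log2 scale (SE 0.084, limma adjusted p = 0.0949 and 0.00696 from limma-voom). *Clu* was at 7.29 and 7.49 FPKM against 4.44 and 5.17 FPKM, with both cKO libraries below both controls. It changed by -0.53 on the log2 scale (SE 0.094, limma adjusted p = 0.125 and 0.0299 from limma-voom), the opposite sign to its change in hippocampi.

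The other tested genes were not called in cortices. *Slc1a2* was at 2.79 and 1.42 FPKM in controls and at 1.10 FPKM in both cKO cortices, -0.53 on the log2 scale (limma adjusted p = 0.440). This was past the thresholds with limma-voom (-0.86), with rescaled libraries (-0.55) and without control library 2 (-0.85), where the cKO pair alone gives the spread, and was -0.20 without control library 1. *Aldoc* was at 30.7 and 28.6 FPKM against 26.9 and 22.5 FPKM, -0.26 on the log2 scale (limma adjusted p = 0.432). *Slc1a3* overlapped, at 12.6 and 13.9 FPKM against 14.4 and 12.6 FPKM. Of the genes below the filter, *Gfap* (0.145 and 0.342 FPKM in cKO cortices, 12 and 27 reads) and *Aqp4* (0.110 and 0.168 FPKM, 11 and 16 reads) overlapped with the controls, and *Gpr37l1* (1 and 2 reads) was too shallow for a comparison.

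*Gja1* and *Sparc* are also made by meningeal and vascular cells, and markers of these cells moved with them in cortices. All 8 meningeal markers, which include fibroblast collagens, were called higher in cKO cortices, with summed levels of 1.44 and 2.49 FPKM in controls and 44.1 and 26.7 FPKM in cKO cortices. Each of the 8 was under 0.5 FPKM on average in controls, so that they passed the filter only through the cKO libraries and the count of 8 is no support by itself, and none was at 0 in all libraries of a group. Of 8 vessel markers 3 were higher (sums of 56.2 and 55.4 against 85.6 and 82.9 FPKM), and of 8 microglial markers 4 were higher (sums of 19.3 and 16.5 against 34.2 and 25.9 FPKM). *Xist* differed between the control libraries, and without control library 1 the log2 fold change of *Gja1* was 1.59. The part of these cells in the rise of *Gja1* and *Sparc* was not tested.

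**Figure D3:**
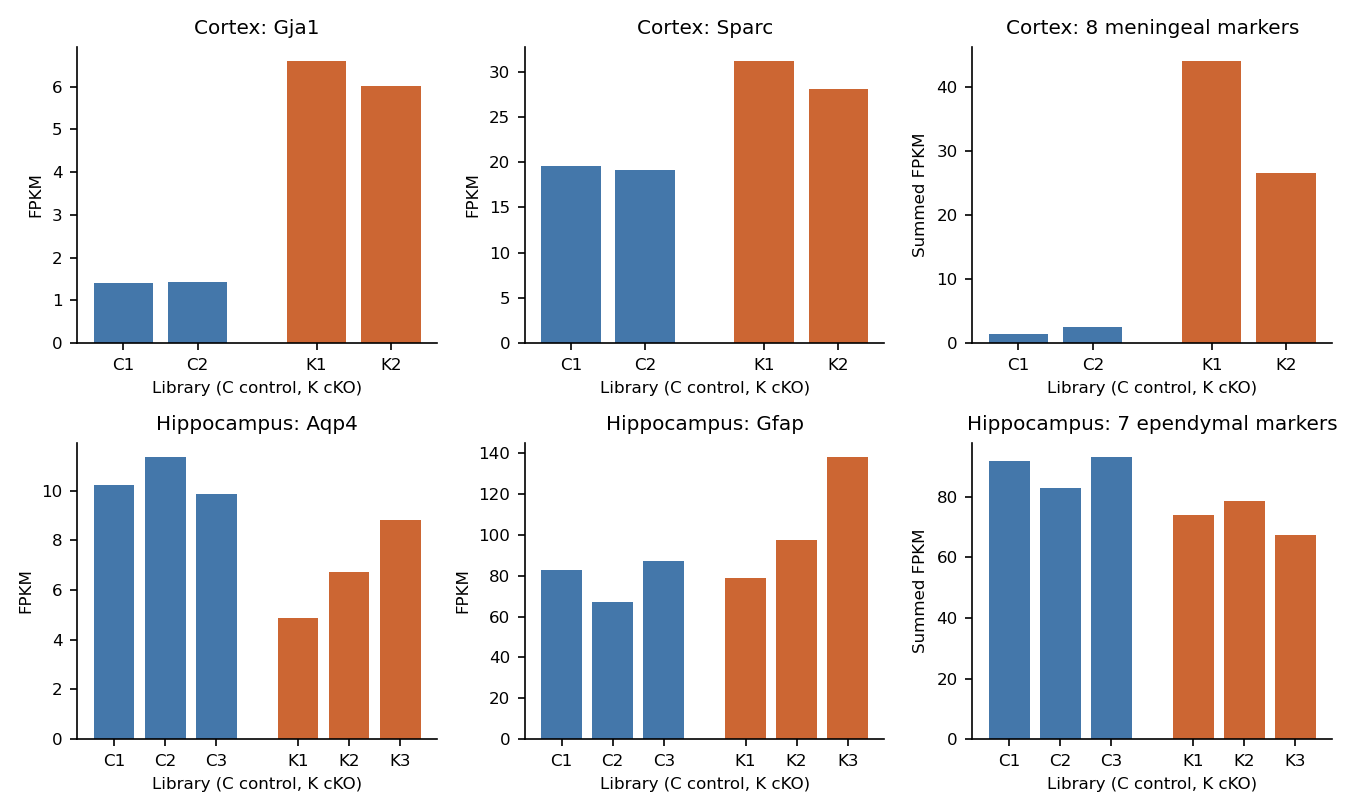
Levels in FPKM per library (C, control; K, cKO) of *Gja1*, *Sparc* and the summed meningeal markers in cortices (top), and of *Aqp4*, *Gfap* and the summed ependymal markers in hippocampi (bottom). In cortices *Gja1*, *Sparc* and the meningeal sum were all higher in both cKO libraries, and in hippocampi *Aqp4* and the ependymal sum were lower in all 3 cKO libraries.

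The change of *Gja1* and of *Clu* differed between hippocampi and cortices of *Kdm2b* mice. In a limma fit of genotype by tissue over both tables, 2 of the 6 genes passed an adjusted p of 0.05, where 1.64% of the 10719 genes tested did. The hippocampal change of *Gja1* was lower than its cortical change by 1.84 on the log2 scale (SE 0.15, limma adjusted p = 0.000185), and that of *Clu* was higher by 0.72 (SE 0.091, adjusted p = 0.00236). For *Sparc* the difference was -0.41 (95% interval -0.64 to -0.17, limma adjusted p = 0.102), and for *Slc1a2*, *Slc1a3* and *Aldoc* it was 0.47, 0.17 and 0.43, none past the threshold. The tables were normalised separately and hold different libraries, so the tissue and the sequencing set cannot be told apart in these differences.

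In hippocampi of the *Rnf2* set none of the 9 genes was called, though 7 of the 9 log2 fold changes were below 0. The counts were 0 higher and 0 lower at the same thresholds, also with limma-voom, where 2.86% and 1.85% of the 15764 genes tested were called, and no gene of the whole table passed an adjusted p of 0.05 at that fold change. The median log2 fold change was -0.24 against 0.00 over all genes. The cKO libraries lay wholly outside the controls for 2 of 9 genes, where 38.3% of all genes tested did so.

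Those were *Slc1a3* and *Gja1*. *Slc1a3* was at 65.8 and 58.2 FPKM in controls and 53.5 and 46.1 FPKM in cKO hippocampi, -0.31 on the log2 scale (limma adjusted p = 0.707). *Gja1* was at 6.14 and 6.99 FPKM against 4.70 and 5.41 FPKM, -0.32 on the log2 scale (limma adjusted p = 0.713). Both 95% intervals reached above 0, to 0.008 and 0.02. Meningeal markers, 5 of 8 of them lower, summed to 43.1 and 42.0 FPKM in controls and 19.9 and 29.1 FPKM in cKO hippocampi, and their part was not tested.

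The controls of this set were far apart for *Aqp4*, *Gfap* and *Gpr37l1*, with library 1 above library 2, whereas *Slc1a2* and *Gja1* were higher in library 2. *Aqp4* was at 14.4 and 5.38 FPKM in control libraries 1 and 2 and at 6.78 and 3.72 FPKM in cKO hippocampi. *Gfap* was at 55.4 and 36.1 FPKM against 38.8 and 32.8 FPKM, and *Gpr37l1* at 3.15 and 0.765 FPKM against 1.68 and 1.06 FPKM. Control library 1 was the highest in all 3 genes, and its summed level of 37 other astrocyte genes (1211 FPKM) was above those of the other 3 libraries (814 to 938 FPKM). Ependymal (48.0 against 28.3 to 36.7 FPKM) and microglial sums (59.2 against 32.5 to 39.3 FPKM) were highest there too. Without control library 2, *Gfap* (-0.62), *Aqp4* (-1.35) and *Gpr37l1* (-0.82) were past the thresholds, but then library 1 alone stands for the controls and the spread comes from the cKO pair, and without control library 1 the log2 fold change of *Gpr37l1* was 0.41.

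The last group overlapped throughout. *Slc1a2* was at 28.9 and 36.9 FPKM in controls and 25.8 and 29.2 FPKM in cKO hippocampi. *Clu* (46.8 and 37.5 against 45.0 and 50.4 FPKM), *Sparc* (78.7 and 67.4 against 62.7 and 67.9 FPKM) and *Aldoc* (42.6 and 39.4 against 42.0 and 42.9 FPKM) did not separate. Between the *Kdm2b* and the *Rnf2* deletion in hippocampi, 0 of 9 genes differed at an adjusted p of 0.05, where 0.683% of 11278 genes did. The nearest to it was *Slc1a3*, whose change was higher in the *Kdm2b* set by 0.51 (95% interval 0.25 to 0.77, limma adjusted p = 0.0733). This difference was 0.42 without control library 1 and 0.60 without control library 2 of the *Rnf2* set, each of which leaves 1 control library there. For *Gfap* the difference was 0.70 (95% interval 0.03 to 1.36, limma adjusted p = 0.303).

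A further 37 genes of astrocytes that are not among the 9 gave the surroundings. In hippocampi of *Kdm2b* mice 1 of 37 was higher and 6 were lower, with a median log2 fold change of -0.10. The 3 largest falls were those of *Slc25a18*, a mitochondrial glutamate carrier (13.5, 10.7 and 11.3 FPKM in controls, 6.59, 8.04 and 6.08 FPKM in cKO, log2 fold change -0.70, limma adjusted p = 0.00891), of the secreted *Sparcl1* (89.8 to 106 against 53.2 to 63.2 FPKM, -0.70, adjusted p = 0.00237) and of the neurotensin receptor *Ntsr2* (4.40 to 5.83 against 2.24 to 4.03 FPKM, -0.61, adjusted p = 0.0507). The rise was that of the metallothionein *Mt2* (199.6 to 272 against 309.7 to 326 FPKM, 0.42, adjusted p = 0.0308), which was below the fold change threshold without control library 2 (0.31).

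In neurospheres 32 of the 37 were below -0.4 on the log2 scale and 0 were above 0.4, with a median of -1.17, again as a description without a test. Among the largest falls were those of *Agt*, the angiotensin precursor (63.6 and 38.6 against 2.49 and 3.22 FPKM), and *Sparcl1* (262 and 149.8 against 18.7 and 14.5 FPKM). Meningeal, vessel and microglial markers were low in these cultures, with sums of at most 6.32, 5.90 and 1.36 FPKM. Of 8 genes of the oligodendrocyte lineage 6 were below -0.4 (median of the 8 -1.45), although their sums, led by the 2 others, were 2585 and 2533 FPKM in controls and 2523 and 2460 FPKM in cKO neurospheres. Of 6 neuronal genes 3 were below -0.4 and 1 above 0.4, with sums of 232 and 243 against 199.7 and 171 FPKM. Choroid plexus sums were 0.926 and 1.01 against 10.3 and 13.2 FPKM. They rest on few genes, as 2 of the 8 markers passed the filter and 6 were under 0.5 FPKM on average in cKO neurospheres. Whether these marker lists reflect cells, and their part in the lower astrocyte genes, was not tested. In cortices 5 of 32 tested were higher and 0 lower, with a median of 0.09. *Gjb6* (connexin 30), another gap junction gene of astrocytes, was at 0 and 0.0176 FPKM (0 and 1 reads) in controls. It was at 1.89 and 1.92 FPKM in cKO cortices, so that it passed the filter only through the cKO libraries and had to differ. In cKO cortices the lipid carrier *Apoe* was at 40.9 and 30.5 FPKM against 16.5 and 12.9 FPKM in controls, and *Mt1* at 14.3 and 14.4 FPKM against 8.23 and 8.08 FPKM, in the same libraries in which the meningeal markers were high. In the *Rnf2* set 0 of 35 were higher and 2 were lower, *S1pr1* (-0.46) and *Dio2* (-0.45), with adjusted p values of 0.643 and 0.697 from limma. The median was -0.20. Above 0 were 4 of the 35 log2 fold changes, against 7872 of 15764 over all genes tested. With a library left out, which leaves 1 library in a group, the change of *S1pr1* was -0.56 to -0.36 and that of *Dio2* -0.67 to -0.23. Control library 1 had the highest summed level of the 37 genes in this set, as given above.

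**Figure D4:**
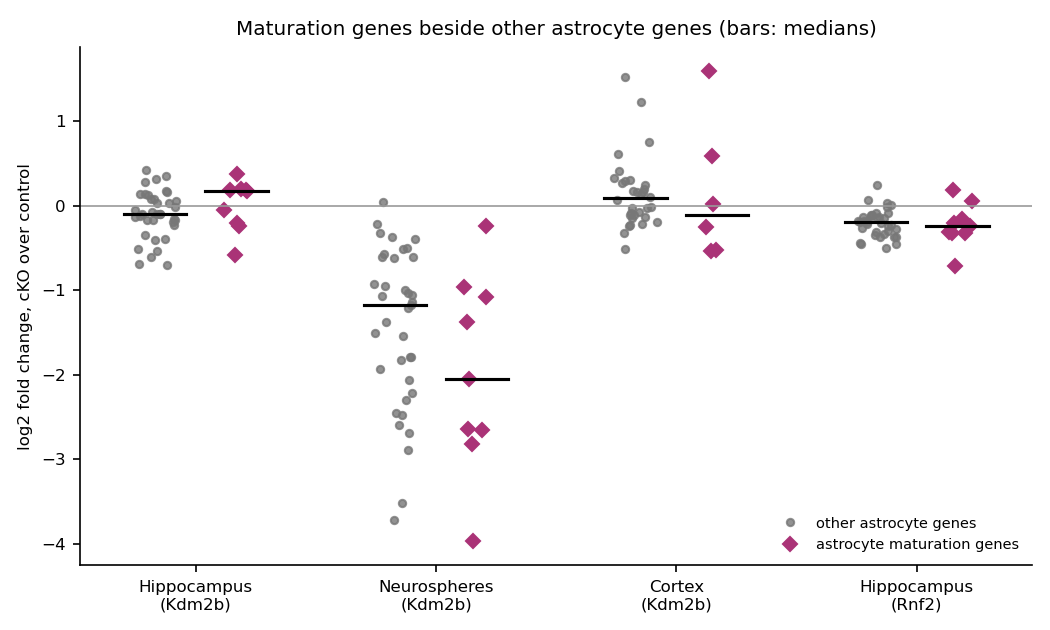
Log2 fold change (cKO over control) of the 9 genes (diamonds) and of the other astrocyte genes that passed the filter (circles) in each comparison, with medians as bars. Both groups lay far below 0 in neurospheres (medians -2.05 and -1.17). The medians were 0.17 and -0.10 in hippocampi and -0.12 and 0.09 in cortices. In the *Rnf2* set both groups lay mostly below 0 (medians -0.24 and -0.20).

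Genes tied to astrocyte fate, called fate genes here, and radial glial genes were counted beside them. The list names are labels, and whether a change belonged to astrocytes or to radial glia was not tested. In hippocampi 4 of 20 fate genes were higher and 0 lower, namely *Sox9* (0.68), *Hes1* (0.60), *Id4* (0.45) and *Stat3* (0.43), and 5 of 14 radial glial genes were higher and 0 lower, namely *Pax6* (0.83), *Gli3* (0.78), *Prom1* (0.55), *Nes* (0.52) and *Vim* (0.50). These 4 fate and 5 radial glial genes had an adjusted p of at most 0.0442 from limma. Of all genes tested there, 3.89% were higher and 2.25% lower. In neurospheres 1 of 20 fate genes was above 0.4 on the log2 scale and 10 were below -0.4. For the 14 radial glial genes these counts were 5 and 1, with no test. Of all 12227 genes above the filter, 1572 were above 0.4 and 1783 below -0.4. In cortices 2 fate genes were higher (*Id3* and *Il6st*) and 1 lower (*Zbtb20*), and of the radial glial genes *Nes* was higher and *Tnc* lower. In the *Rnf2* set 2 fate genes were higher (*Hes1* and *Nfix*) and 2 radial glial genes were lower (*Ptprz1* and *Egfr*), with no adjusted p under 0.05. Of all genes tested, 4.73% were higher and 2.28% lower in cortices, and 2.86% and 1.85% in the *Rnf2* set.

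The genes whose 4 log2 fold changes lay nearest to the medians of the 9 genes, by Euclidean distance among the 9605 genes tested in all 4 tables, were *Mgll*, *Fbln2*, *Dcx*, *Khdrbs2* and *S1pr1*, with distances of 0.263, 0.310, 0.348, 0.352 and 0.374. Their neurosphere log2 fold changes were between -2.21 and -1.83, and their tissue changes between -0.46 and 0.27. The neurosphere values took part in the choice of the 9 genes, so this likeness is a description over 4 comparisons.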

How the data were processed

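Poly(A) RNA-seq of 18 libraries was used. For hippocampi and neurospheres the authors used cutadapt for trimming and STAR for alignment (mm10), and deposited FPKM values from Cufflinks 2.2.1. The submitters' notes name the same tools for the cortical and *Rnf2* FPKM values, which also give a gene length, and how reads were counted there is not given in the sources used here. These 2 tables resolved into whole reads (100% of values, tolerance 0.02 reads). Entries with a blank gene name were dropped (2861 of 27180, 2059 of 26293, 140 of 54672 and 0 of 54532). The 9 genes and all lists were chosen with earlier results of these data known.

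Values were taken to log2(FPKM + 1). The filter kept genes averaging 0.5 FPKM or more, which limma 3.58.1 in R 4.3.3 tested (eBayes with a trend), each table by itself, with Benjamini-Hochberg adjustment over all genes, and differences between tables by an interaction over genes tested in both. Named genes were the 9, the 3 largest rises and falls among called genes of the further astrocyte list per comparison, members of other lists where at most 5 were called, and the 5 nearest genes. Some genes that this rule names are not reported here. The scripts were tested on simulated data. The labels tie no replicate number to a shared animal, litter or batch, so no block was used. Alternatives were another pseudocount, filter, scaling, eBayes without a trend, a replicate block, no fold change threshold, adjusted p values, summed entries, left-out libraries and limma-voom on recovered reads. Gene-level p values rest on few libraries.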

Additional observations from a re-analysis of the deposited data

Results flagged for a closer look

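The change of *Gja1* on *Kdm2b* deletion differed between hippocampi and cortices by -1.84 on the log2 scale (adjusted p = 0.000185 from limma, interaction of genotype and tissue). All 3 hippocampal cKO libraries were below their controls, and both cortical cKO libraries were above theirs. The change of *Clu* differed by 0.72 (adjusted p = 0.00236 from limma) in the opposite direction, with hippocampal cKO libraries above and cortical cKO libraries below their controls. Both differences were past the threshold under every alternative run and with each library left out, from -2.33 to -1.72 for *Gja1* and from 0.63 to 0.81 for *Clu*. Meningeal marker sums were 1.44 and 2.49 FPKM in control and 44.1 and 26.7 FPKM in cKO cortices, and their part was not tested.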

How the results depend on the processing

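In hippocampi, 0 genes higher and 1 lower became 3 and 2 with no fold change threshold and 0 lower with adjusted p, and leaving out each library gave 0 to 1 higher and 0 to 1 lower. Of the other astrocyte genes there, 1 higher and 6 lower became 7 and 11 with no fold change threshold, 2 were higher with a pseudocount of 0.1, and 0 to 1 were higher with a library left out. The neurosphere median was -2.23 with a pseudocount of 0.1 and -2.29 to -1.81 with a library left out. In cortices 1 gene was higher and 0 lower with adjusted p, 2 were lower with libraries rescaled to the same total, with the replicate block and with limma-voom, and 1 to 2 were lower with a library left out. Of the other astrocyte genes there, 2 were higher with adjusted p and 8 with no fold change threshold, while 1 was lower with no fold change threshold, a pseudocount of 0.1, rescaled libraries, eBayes without a trend and the replicate block, 2 with limma-voom and 0 to 1 with a library left out. In the *Rnf2* set 1 gene was lower with the replicate block (*Aqp4*) and 0 to 3 with a library left out. Of the other astrocyte genes there, 0 were lower with adjusted p, 1 with no filter, rescaled libraries or eBayes without a trend, and 0 to 17 with a library left out. Between the *Kdm2b* and *Rnf2* deletions 0 to 1 genes differed with a library left out. The cause of these shifts was not tested.

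Signs near 0 turned for *Slc1a2* in hippocampi (-0.16 to 0.050 with a library left out), *Slc1a3* in cortices (-0.017 rescaled, -0.066 to 0.11 with a library left out), *Aldoc* (-0.0025 to 0.11) and *Gpr37l1* (-0.82 to 0.41) in the *Rnf2* set, and *Kdm2b* there (-0.0098 at the lowest, 0.16 at the highest, with a library left out). The deviations of same-numbered libraries from their group means had correlations of -0.10 to 0.049 in hippocampi, -0.28 in neurospheres, -0.053 in cortices and 0.16 in the *Rnf2* set, where number 1 was the higher for *Aqp4* in both groups. With no source for a pairing and 2 pairs there, the replicate block rests on the number alone. In neurospheres the crossed pairing, added after seeing the data, gave 1445 genes of the whole table higher and 1639 lower, against 1392 and 1620 without a block. Where a pair loses a library, the lone library is assumed to vary like the other group. *Gpr37l1*, *Gfap* and *Aqp4* had 1 to 39 reads in cortices and were not tested there.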
